A study of Mus musculus with 4 samples.

Results

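The p53 axis was followed in mouse embryos at the 2-cell stage through 10 genes: Trp53, which encodes p53, its inhibitors Mdm4 and Mdm2, and 7 genes known as p53 targets, Cdkn1a, Ccng1, Trp53inp1, Eda2r, Zmat3, Sesn2 and Phlda3. They were taken by gene symbol from a table of 53715 genes, and all 10 were found in it. The list itself sets no limit on a measured value, but the genes were chosen by their symbols and roles with the knockdown and control counts of these libraries, and the fold changes between them, already known. Differences between the groups are therefore given as descriptions, and nothing is supported with a p-value of one of the 10 genes. The knockdown group came from zygotes of the C57BL/DBA2 strain that received 20 μM of siSPENH0335, an siRNA whose target, by the title of the series, is an enhancer-derived RNA named SPENH0335. No row of the table is named for it, so its own level was not measured here. The control group came from zygotes of the same strain that received 20 μM of the control siRNA siNC. Both groups were grown in KSOM, an embryo culture medium, and sequenced as whole embryos from poly(A) RNA with pre-amplified cDNA, in 2 libraries each. The labels do not say how many embryos a library holds or whether the libraries are separate collections, so the spread between them may be technical.

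The p53 protein is a transcription factor that damage and other stress stabilise, and it turns on genes that halt the cell cycle, repair DNA, change metabolism or kill the cell. In unstressed cells it is kept low by Mdm2, a ubiquitin ligase that marks it for destruction and is itself a p53 target, which closes a feedback loop. Mdm4, also called Mdmx, is a relative of Mdm2 that covers the activation domain of p53, has little ligase activity of its own and pairs with Mdm2. Mouse embryos that lack either inhibitor die early, and loss of p53 rescues them. An embryo at this stage carries transcripts stored in the egg beside those of its own newly active genome, and a level of poly(A) RNA does not separate these sources.

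The DNA just upstream of the genes is shown because p53 acts there on some of its targets. RefSeq windows on GRCm38.p6, from 250 bases before to 50 bases after a gene start, were found for 8 of the 10 genes, 10 windows in all, with none matched for Trp53inp1 and Zmat3. The p53 half-site, a 10-base consensus that reads the same on both strands, was found in 4 of the 10 windows, against 8.36% of all 32851 windows of the same length. Capitals mark the half-sites below, each with 25 bases on either side.
Trp53, chr11:69580259-69580318, + strand: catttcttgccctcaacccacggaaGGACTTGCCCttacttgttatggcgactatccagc
Mdm2, chr10:117710910-117710969, - strand: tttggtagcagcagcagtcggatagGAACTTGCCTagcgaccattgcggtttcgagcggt
Cdkn1a, chr17:29090881-29090962, + strand: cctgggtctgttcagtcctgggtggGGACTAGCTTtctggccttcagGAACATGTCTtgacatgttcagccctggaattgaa
Ccng1, chr11:40755437-40755496, - strand: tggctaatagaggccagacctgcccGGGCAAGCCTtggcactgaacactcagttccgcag
The first base of the half-site lies at -75 in Trp53, -186 in Mdm2 and -185 in Ccng1, counted from the gene start. The upstream start of Cdkn1a has a pair of half-sites, at -73 and -51, separated by 12 bases. That pair meets the definition of a full p53 element used here, a pair of exact half-sites 0 to 13 bases apart, which 0.0731% of all windows hold. Half-sites with a mismatch to the consensus were not searched and are not marked, so other bases here may also belong to a p53 element. In Cdkn1a the 10 bases directly after the half-site at -51 differ from the consensus only at their first base. The marked pair may therefore not be the pair that p53 binds. The second Cdkn1a start, 2790 bases downstream, has no half-site in its window, and neither have the windows of Mdm4, Eda2r, Sesn2 and Phlda3. Where these genes are known to carry p53 sites elsewhere, such as in introns, those sequences were not searched here.

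Mdm4 is the gene that stands apart by level, and it has 2 RefSeq starts that lie 5171 bases apart. The 150 bases before each are shown, with no capitals because no half-site was found.
Mdm4 upstream start, chr1:133030588-133030737, - strand: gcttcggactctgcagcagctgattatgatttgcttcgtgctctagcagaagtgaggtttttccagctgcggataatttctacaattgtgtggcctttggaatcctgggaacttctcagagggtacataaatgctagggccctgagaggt
Mdm4 downstream start, chr1:133025417-133025566, - strand: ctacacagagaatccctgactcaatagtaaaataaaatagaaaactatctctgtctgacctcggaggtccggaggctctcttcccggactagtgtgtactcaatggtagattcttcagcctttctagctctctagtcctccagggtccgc
The observed over expected CpG ratio over the whole window is 0.306 at the upstream start and 0.489 at the downstream one, against a median of 0.384 over all windows. The Mdm2 window has a ratio of 1.12 and 64.7% G and C, against a median of 52.7%. The counts are per gene, so the share of Mdm4 RNA from each start cannot be read from them.

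The libraries held 94257563 and 99011109 counts in knockdown and 87900405 and 78865491 counts in control. Markers of the 2-cell embryo and oocyte were present in every library, and their 12 genes summed to 6338 and 6380 CPM (counts scaled to a common library total with edgeR's TMM method) in knockdown and to 6605 and 6686 CPM in control. The 12 cumulus and granulosa markers summed to 73.9 and 87.8 CPM in knockdown and to 85.8 and 73.7 CPM in control. Cyp19a1 took the largest part of that sum, and Inha had no count in any library. Sperm markers summed to 20.0 and 11.8 CPM in knockdown and to 18.2 and 15.6 CPM in control. The 14 markers of blood, oviduct and stroma together came to 131 and 101 CPM in knockdown and to 129 and 137 CPM in control, with Hbb-bs at 0 in every library. The knockdown replicates differed more than the control replicates: over 8185 genes above 10 CPM, the median absolute log2 difference between replicates was 0.26 in knockdown and 0.13 in control.

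Per length, Mdm4 was by far the most abundant of the 10 genes. Its TPM values (counts per base of annotated exon, scaled to a common total) were 838 and 832 in knockdown libraries and 796 and 831 in control libraries. The mean over the 4 libraries ranked 128th of 36806 detected genes, and in summed counts, without regard to length, Mdm4 ranked 8th in the table. It alone took 0.474 and 0.444% of all counts in knockdown and 0.436 and 0.455% in control. Trp53inp1, whose product assists p53 phosphorylation and autophagy, came next at a mean of 156 ± 9.60 TPM (SD, n = 4 libraries). Mdm2 followed at 119 ± 2.65 TPM. The values of these 3 genes did not overlap.

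Trp53 itself averaged 31.3 ± 4.90 TPM over the 4 libraries. Its range of 24.3 to 34.7 TPM overlapped that of Cdkn1a, which averaged 25.2 ± 8.83 TPM, so the order of this pair is not separated by the spread. Ccng1, at 17.2 ± 6.36 TPM, overlapped Cdkn1a, and Sesn2, at 7.69 ± 3.49 TPM, overlapped Ccng1. Zmat3 lay below all of these at 1.08 ± 0.573 TPM. Eda2r averaged 0.408 ± 0.359 TPM and Phlda3 was at or near 0. The values of Eda2r overlapped those of Zmat3, and those of Phlda3 overlapped Eda2r. By this length the 7 targets reached from Trp53inp1, above Mdm2, down to Phlda3.

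**Figure D1:**
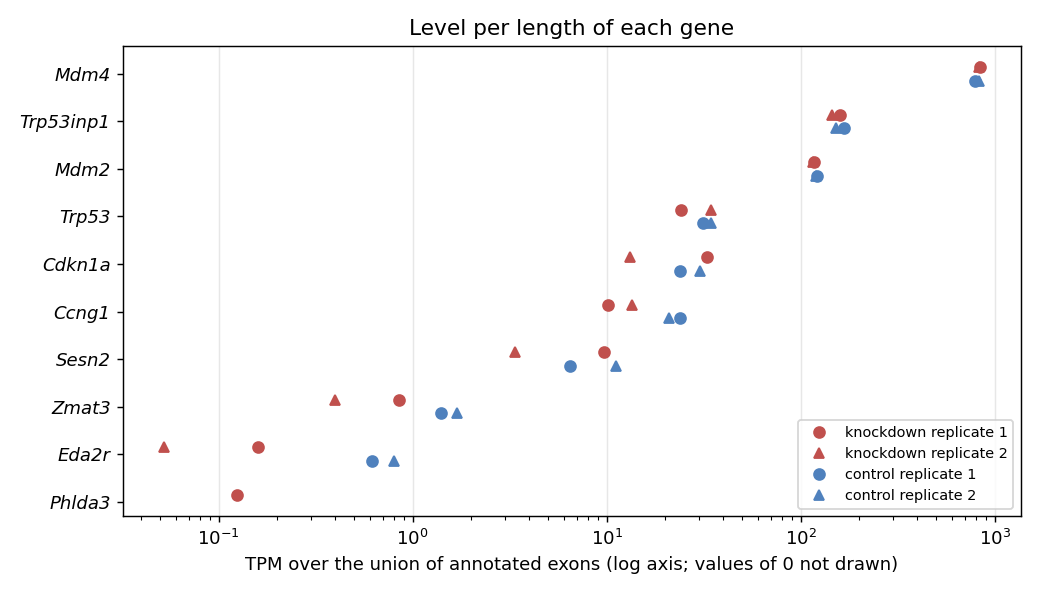
Level per length of the 10 genes on a log axis of TPM, with circles for replicate 1 and triangles for replicate 2, knockdown in red above control in blue. Mdm4 sits at 796 to 838 TPM, apart from every other gene, and the neighbouring values of Trp53, Cdkn1a, Ccng1 and Sesn2 overlap.

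In every library the inhibitor transcripts outnumbered those of p53 per length. The ratio of Mdm4 to Trp53 TPM was 34.6 and 24.0 in knockdown and 25.2 and 24.0 in control. The ratio of Mdm2 to Trp53 was 4.82 and 3.35 in knockdown and 3.86 and 3.45 in control. Knockdown replicate 1 had the highest value of both ratios, and the other libraries lay close together. Mdm4 over Mdm2 was 7.18 and 7.17 in knockdown and 6.53 and 6.94 in control. With the longest transcript in place of the exon union as a gene's length, the neighbours Trp53inp1 and Mdm2, and also Trp53 and Cdkn1a, changed places in the order. Mdm4 remained first by that length too, at 1437 TPM.

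Trp53 (chromosome 11, 69580359 to 69591873, GRCm38) had 36.6 and 53.2 CPM in knockdown libraries and 46.8 and 50.9 CPM in control libraries. The knockdown libraries lay on either side of both controls. Its log2 fold change, knockdown over control, was -0.12 (SE 0.22, 95% interval -0.67 to 0.42). It was 0.12 without knockdown replicate 1 and -0.41 without knockdown replicate 2. Wrap53 encodes a telomerase and Cajal body protein and begins 104 bases away on the other strand. It had 5.99 and 1.25 CPM in knockdown and 5.13 and 8.48 CPM in control, and was added here after its values were seen.

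Mdm4 (chromosome 1, 132959484 to 133030561) had 4630 and 4680 CPM in knockdown and 4326 and 4463 CPM in control. Both knockdown libraries lay above both controls, by a small margin. The log2 fold change was 0.08 (SE 0.06, 95% interval -0.07 to 0.24), so the interval lies well within a 2-fold difference in either direction. It was 0.04 when libraries were scaled by their totals alone, without TMM.

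Mdm2 (chromosome 10, 117688875 to 117710758) had 222 and 224 CPM in knockdown and 228 and 221 CPM in control. The groups overlapped, with a log2 fold change of -0.01 (SE 0.10, 95% interval -0.25 to 0.24). Among the 9 genes in the fit, Mdm4 and Mdm2 had the smallest log2 differences between replicates in either group. An interval around 0 does not show that the groups were equal.

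**Figure D2:**
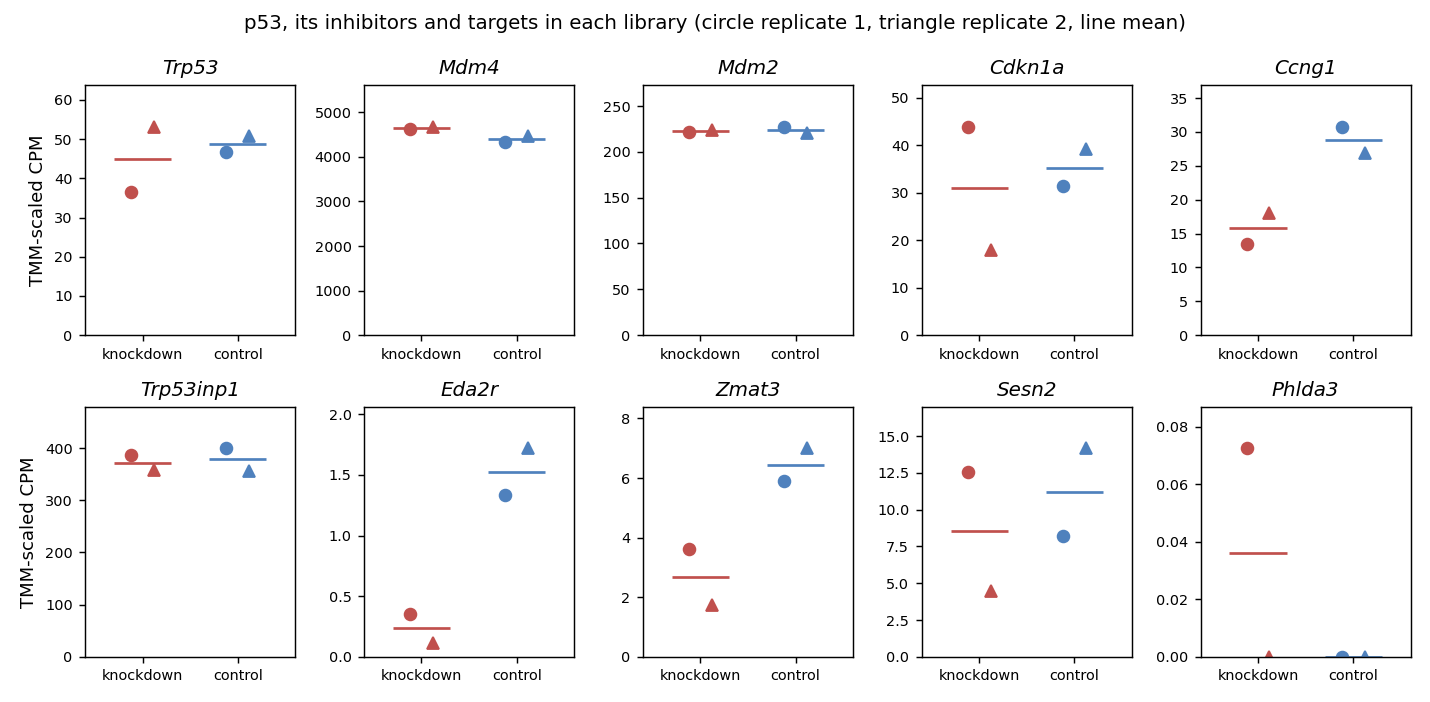
TMM-scaled CPM of each of the 10 genes, 1 panel a gene with its own axis from 0, knockdown libraries in red left of control libraries in blue, circles for replicate 1, triangles for replicate 2 and lines for means. Ccng1, Eda2r and Zmat3 have both knockdown libraries below both controls, while Cdkn1a and Sesn2 have 1 knockdown library inside or above the control values and 1 below.

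Of the targets, 3 had both knockdown libraries below both control libraries, as did 17.1% of all 25565 genes in the fit. Ccng1 (chromosome 11, 40748552 to 40755311) encodes cyclin G1, which acts with protein phosphatase 2A on Mdm2. It had 13.4 and 18.1 CPM in knockdown and 30.8 and 26.8 CPM in control. The groups did not overlap, and the log2 fold change was -0.87 (SE 0.23, 95% interval -1.45 to -0.29). Leaving out single libraries moved it between -1.10 and -0.67.

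Zmat3 (chromosome 3, 32334792 to 32366014) encodes a zinc finger protein that binds RNA. It had 3.64 and 1.74 CPM in knockdown and 5.89 and 7.00 CPM in control, a log2 fold change of -1.26 (SE 0.46, 95% interval -2.41 to -0.12). The estimate was -1.89 without knockdown replicate 1 and -0.82 without knockdown replicate 2. Both knockdown libraries lay below the controls, replicate 2 further than replicate 1.

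Eda2r (chromosome X, 97333840 to 97377216) encodes a receptor of the tumour necrosis factor family for ectodysplasin A2. It rested on few reads, 34 and 11 counts in knockdown and 118 and 138 counts in control. Scaled, these were 0.352 and 0.117 CPM in knockdown and 1.33 and 1.72 CPM in control. The log2 fold change was -2.69 (SE 0.82, 95% interval -4.75 to -0.63), and -3.68 without knockdown replicate 1 and -2.10 without knockdown replicate 2. The intervals of single genes are not adjusted for the number of genes in the fit.

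Of the 12 cumulus and granulosa markers, 2, Foxl2 and Has2, had both knockdown libraries below both controls, as these 3 targets did, and 1, Fshr, had both above. They were named after their values were seen. Foxl2, an ovarian somatic transcription factor, had 22 and 2 counts in knockdown and 79 and 88 counts in control. Has2, the hyaluronan synthase of the expanding cumulus, had 90 and 43 counts in knockdown and 235 and 207 counts in control. The summed level of their list, given above, overlapped between the groups. Of the 9 sperm markers, 5 had both knockdown libraries below both controls and 2 had both above. Of the 14 markers of blood, oviduct and stroma, 5 had both below and 1 had both above, and of the 12 markers of the 2-cell embryo and oocyte, 4 had both below and 3 had both above. Those 4 were Gdf9, Bmp15, Nlrp5 and Oosp1, and those 3 were Zscan4d, Zscan4f and Zfp352, also named after their values were seen. The summed level of the 2-cell embryo and oocyte list, given above, was lower in both knockdown libraries than in both controls. Of all genes in the fit, 17.1% had both below and 15.6% had both above. The part of other cells in the values of Ccng1, Zmat3 and Eda2r was not tested. In whole embryos, fewer cells of a type and less RNA per cell cannot be told apart.

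Cdkn1a and Sesn2 differed more between the knockdown replicates than between the groups. Cdkn1a (chromosome 17, 29090976 to 29100727) encodes p21, the inhibitor of cyclin-dependent kinases that carries out p53 arrest. It had 43.9 and 17.9 CPM in knockdown and 31.3 and 39.1 CPM in control. The highest and the lowest value both came from knockdown, and the log2 fold change was -0.19 (SE 0.43, 95% interval -1.25 to 0.88). It was -0.98 without knockdown replicate 1, 0.32 without knockdown replicate 2 and -0.02 without control replicate 2.

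Sesn2 (chromosome 4, 132492032 to 132510501) encodes a stress protein that restrains mTORC1 signalling. It had 12.6 and 4.47 CPM in knockdown and 8.22 and 14.2 CPM in control, with overlapping groups. Its log2 fold change was -0.39 (SE 0.55, 95% interval -1.77 to 0.99). It was -1.32 without knockdown replicate 1, 0.17 without knockdown replicate 2, -0.73 without control replicate 1 and 0.05 without control replicate 2. The direction of Sesn2, like that of Cdkn1a, thus rested on single libraries.

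Trp53inp1 (chromosome 4, 11156431 to 11174379) had 386 and 358 CPM in knockdown and 399 and 357 CPM in control. The groups overlapped, with a log2 fold change of -0.02 (SE 0.11, 95% interval -0.29 to 0.24). Phlda3 (chromosome 1, 135766119 to 135769136) encodes a small protein that blocks Akt at the membrane. It had 7 counts in knockdown replicate 1 and 0 counts in knockdown replicate 2 and in both control libraries. A count of 0 allows up to 3 counts, or 0.0303 to 0.0380 CPM before TMM scaling in these 3 libraries, and covers counting error only. Phlda3 was not detectable at this depth in 3 of 4 libraries and did not enter the fit.

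**Figure D3:**
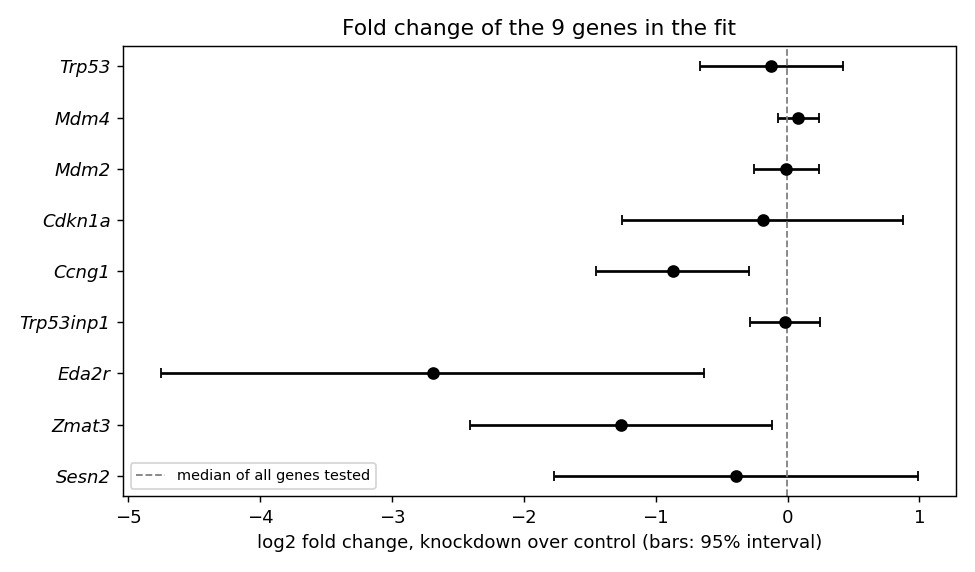
Log2 fold change of knockdown over control for the 9 genes in the fit, with 95% intervals as bars and a dashed line at the median of all genes tested. Mdm4, Mdm2 and Trp53inp1 have narrow intervals around 0, and Ccng1, Zmat3 and Eda2r lie to the left with intervals that reach -0.29, -0.12 and -0.63.

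The gap between replicates differed widely among these genes. For Cdkn1a the knockdown replicates differed by 1.30 on the log2 scale and the control replicates by 0.32. Of the 3697 other genes within 2-fold of its mean level, 1.89% had a wider gap between the knockdown replicates. For Sesn2 the gap was 1.49 in knockdown, exceeded by 4.25% of 4378 genes of like level, and 0.78 in control, exceeded by 6.17%. Mdm2 was at the other end, with a gap of 0.02 in knockdown that 95.8% of 1516 genes of like level exceeded. In control the gap of Mdm2 was 0.04, exceeded by 70.9% of them. The gap of Mdm4 was 0.02 in knockdown, where all 22 genes of like level had a wider one, and 0.04 in control, where 54.5% had.

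By CPM, knockdown replicate 2 was below knockdown replicate 1 for Cdkn1a, Sesn2, Zmat3, Eda2r, Trp53inp1 and Phlda3. It was above it for Trp53 and Ccng1 and, by a small margin, for Mdm4 and Mdm2. Cdkn1a, Sesn2, Zmat3 and Eda2r were at their lowest in knockdown replicate 2, while Trp53inp1 had its lowest CPM in control replicate 2. Trp53 was not low in knockdown replicate 2: its TPM was 34.6, against 24.3 in knockdown replicate 1 and 31.5 and 34.7 in control. Over the 8185 genes above 10 CPM, 39.3% were lower in knockdown replicate 2 than in knockdown replicate 1. That set leaves out Sesn2, Zmat3 and Eda2r, so it is no measure for genes of their level. The 7 targets summed to 459.9 and 400.7 CPM in knockdown and to 476.9 and 445.7 CPM in control, with overlapping groups. Trp53inp1 makes up most of that sum. Without it, the other 6 targets summed to 73.9 and 42.3 CPM in knockdown and to 77.5 and 88.9 CPM in control, and both knockdown sums lay below both control sums. These 6 include Ccng1, Zmat3 and Eda2r, already given as lower. Ccng1 alone had 13.4 and 18.1 CPM in knockdown and 30.8 and 26.8 CPM in control. As the genes were chosen with these values known, nothing is read from this sum.

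**Figure D4:**
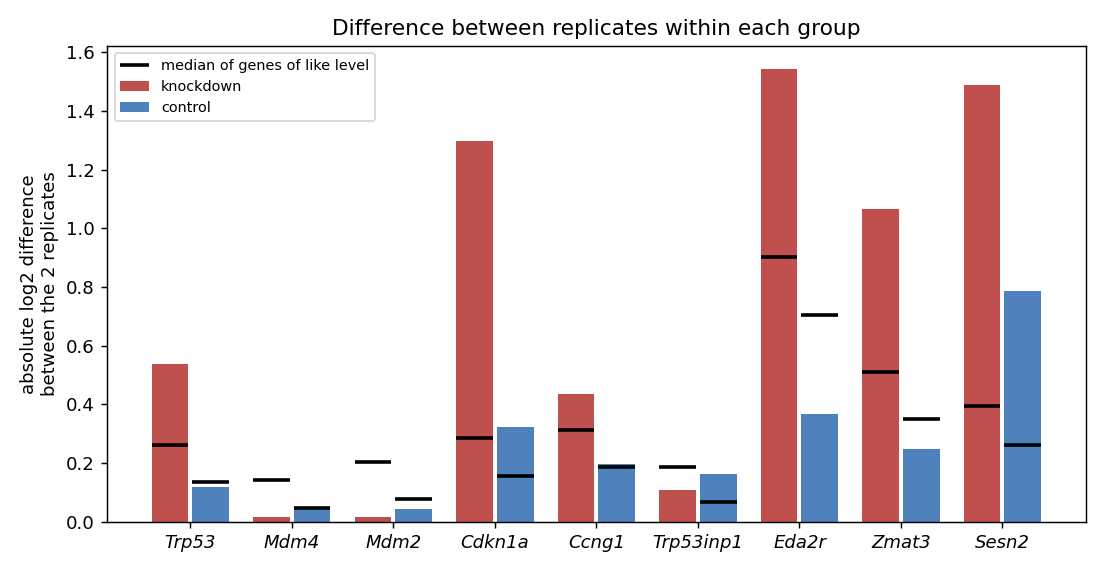
Absolute log2 difference in CPM between the 2 replicates of a group for the 9 genes in the fit, knockdown in red left of control in blue, with black lines at the median of genes within 2-fold of the same mean level. Cdkn1a and Sesn2 reach 1.30 and 1.49 in knockdown, and Mdm4 and Mdm2 stay at 0.02.

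None of the 9 genes in the fit was called by edgeR, DESeq2 or limma-voom. At a Benjamini-Hochberg adjusted p under 0.05 in edgeR's quasi-likelihood test, 0 of the 9 genes tested were higher and 0 lower in knockdown, against 0% of all 25565 genes in either direction. DESeq2 called 0 of the 9 in either direction, against 0.0786% of 25430 genes higher and 0.13% lower, and limma-voom called 0 genes of all. At an unadjusted p under 0.05 in edgeR, 3 of the 9 were lower, against 2.29% of all genes, and 0 were higher, against 1.56%. The libraries of the groups did not overlap for 3 genes that were lower, against 17.1% of all genes, and for Mdm4, which was higher, against 15.6%. As the genes were chosen with these values known, nothing is read from these counts. The log2 fold change was below 0 for 8 of the 9, with a median of -0.19, while 12854 of all 25565 genes were below 0, with a median of -0.0025. The 8 include Mdm2 at -0.01 and Trp53inp1 at -0.02. Trp53, Mdm2, Cdkn1a, Trp53inp1 and Sesn2 changed sign under at least 1 alternative, so nothing is read from this direction either.

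The wider pathway was described through 7 lists by role, with 121 genes in the fit out of 126 listed. Of these, 0 passed the edgeR test in either direction, 56 lay above 0 and 65 below, and the median log2 fold change was -0.03. At an unadjusted p under 0.05, 3 were higher and 1 lower. Those 4 were Trp53bp1, Sirt1, Trim28 and Cpt1c, of which Sirt1, a deacetylase of p53, was named after its value was seen. No list had a member past the threshold.

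The 13 upstream kinases, which pass on DNA damage and other signals, had a median of 0.05 with 9 above 0. Chek1, the checkpoint kinase of stalled replication, was their most abundant gene, at 891 and 1214 CPM in knockdown and 1015 and 984 CPM in control. Its groups overlapped. Mapkapk2, a kinase downstream of p38, had the smallest p of the list and was at 1.66 and 0.554 CPM in knockdown and 2.81 and 2.79 CPM in control. The 22 tested genes of the p53 family and its cofactors had a median of -0.01. The acetyltransferase gene Crebbp led them by level, at 491 and 528 CPM in knockdown and 463 and 450 CPM in control.

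Trp53bp1 encodes 53BP1, a p53-binding protein that works at DNA breaks. It had 83.8 and 96.3 CPM in knockdown and 70.1 and 66.5 CPM in control, a log2 fold change of 0.40 (SE 0.14). Both knockdown libraries were above both controls, but the gene did not pass the test. The 28 regulators of Mdm2 and Mdm4 and other p53 ubiquitin ligases had a median of 0.08, with 16 above 0. Ywhae, a 14-3-3 protein gene, was at 1271 and 1454 CPM in knockdown and 1252 and 1313 CPM in control. Trim28, a corepressor that also binds Mdm2, was at 38.6 and 45.8 CPM in knockdown and 28.4 and 31.6 CPM in control, with groups that did not overlap.

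List medians of the other p53 targets ran from -0.21 to 0.02. Only that of DNA repair and nucleotide supply lay above 0, with 5 genes above 0 and 5 below. The 14 growth arrest targets had a median of -0.07, with Pcna, the replication clamp gene, at 213 and 302 CPM in knockdown and 207 and 211 CPM in control. Ier3 in that list was at 2.27 and 1.04 CPM in knockdown and 3.63 and 2.78 CPM in control. Of the 16 cell death targets 11 lay below 0, with a median of -0.10. Siva1, a proapoptotic gene, was at 272 and 252 CPM in knockdown and 284 and 287 CPM in control, and both knockdown libraries lay below both controls. Trp53inp2, a relative of Trp53inp1 that acts in autophagy, was at 150 and 143 CPM in knockdown and 168 and 160 CPM in control.

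Targets of metabolism and oxidative stress had the lowest median of the 7 lists, -0.21, and 14 of their 18 genes lay below 0. Sat1, a polyamine acetyltransferase gene, was at 170 and 127 CPM in knockdown and 145 and 159 CPM in control. Cpt1c, a carnitine palmitoyltransferase gene, was at 0.622 and 0.724 CPM in knockdown and 1.43 and 2.43 CPM in control. Sat1 overlapped between the groups and Cpt1c did not. The genes furthest below 0 in this list were of low level. Cpt1c was the lowest, with a log2 fold change of -1.52 at a mean of 1.30 CPM, while Sat1, the most abundant, was at -0.03. Targets of DNA repair and nucleotide supply had a median of 0.02 over 10 genes. Rrm2b, the p53-inducible ribonucleotide reductase subunit, was at 822 and 847 CPM in knockdown and 796 and 805 CPM in control. Fancc, a Fanconi anaemia gene, was at 70.4 and 70.8 CPM in knockdown and 84.7 and 83.1 CPM in control.

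**Figure D5:**
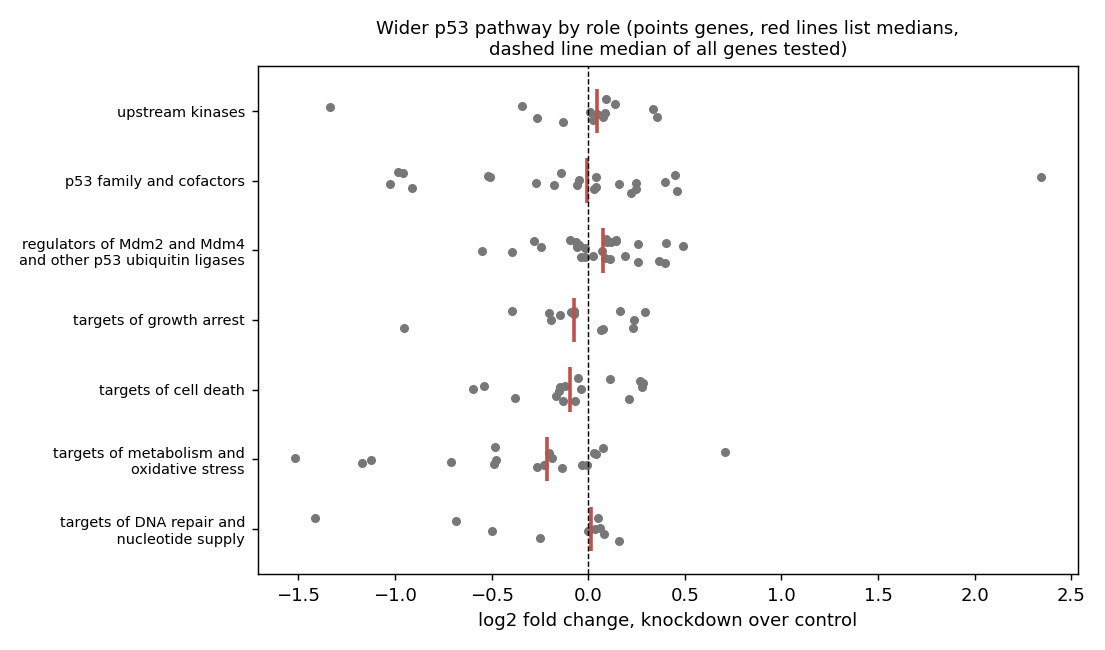
Log2 fold change of knockdown over control for the 121 genes of the 7 role lists, 1 row a list, with grey points for genes, red lines for list medians and a dashed line at the median of all genes tested. List medians run from -0.21 for targets of metabolism and oxidative stress to 0.08 for regulators of Mdm2 and Mdm4.

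Sequence that genes share limits some of these counts. Mdm4 shares 7.31% of its 50-base stretches with other transcripts, nearly all with its processed pseudogene Mdm4-ps. That pseudogene had 256 and 252 counts in knockdown and 263 and 272 counts in control, far below the counts of Mdm4, which were 446991 and 439449 in knockdown and 383644 and 358511 in control. Trp53 shares 3.95%, mainly with Trp53-ps, which had at most 4 counts in a library. Cdkn1a shares 8.49%, most of it with AC167363.2, an unconfirmed transcript on the other strand whose exons overlap 7.68% of its own exon bases. Mdm2 shares 1.32%, mainly with Cltc, which had 27378 and 22587 counts in knockdown and 24319 and 20964 counts in control, more than Mdm2 in each library. Zmat3 shares 0.88%. Ccng1, Trp53inp1, Eda2r, Sesn2 and Phlda3 share none.

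Among the 22 genes within 2-fold of its mean CPM, the 3 whose pattern over the 4 libraries was most like that of Mdm4 were Mphosph6, Strn and C86187. The root mean square difference in centred log2 CPM was 0.015 for Mphosph6, 0.022 for Strn and 0.050 for C86187. Mphosph6 was at 2867 and 2815 CPM in knockdown and 2626 and 2715 CPM in control. With 4 libraries and 22 candidates this likeness is a description only.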

How the data were processed

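Poly(A) RNA of whole 2-cell embryos was measured in 2 knockdown and 2 control libraries. The deposited table holds raw counts, whole numbers whose totals differ between libraries. Per the submitters' processing notes, HISAT2 2.1.0, Picard 2.18.2, Trim Galore 0.6.5 and CASAVA 1.8 were used with the build mm10, in roles not stated. The counter, the strand setting and the treatment of duplicates are steps not given in the sources used here, so reads of overlapping genes cannot be told apart. Symbols, coordinates and exon lengths come from GENCODE M21 on GRCm38, the assembly of mm10, by Ensembl ID without version (53620 of 53715 rows matched), and promoter sequences from RefSeq.

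Testing used edgeR 4.0.16 under R 4.3.3 (filterByExpr with a minimum count of 10, TMM, quasi-likelihood F-test, group as the only term, two-sided, Benjamini-Hochberg at 0.05 over 25565 genes). The SE is the fold change over the square root of F, and intervals are 95%. The test was checked on simulated counts, where it missed many of the changes put in, most of all the smaller ones. A gene that was not called may therefore still differ. DESeq2 1.42.0 and limma 3.58.1 (voom), other scalings and filters, a replicate block and leaving out each library were alternatives. CPM use TMM-scaled library sizes, and the log2 values of replicates a prior count of 0.5. Named genes outside the 10 are, per role list, the one with the highest mean CPM and the one with the smallest p. The 10 genes and all lists were chosen with earlier results of these data known. No pair of libraries agreed within sampling noise. The chi-square per degree of freedom was lowest between the controls, 28.8, and highest between the knockdown libraries, 94.8. Every pair of a knockdown and a control library lay between these.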

Additional observations from a re-analysis of the deposited data

How the results depend on the processing

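DESeq2 called 20 genes higher and 33 lower, where edgeR called 0 in each direction, and 0 of the 10 genes were among them. Leaving out single libraries gave 0 to 2 genes higher and 0 to 1 lower. The 10 genes had 0 calls in either direction under each of the 11 alternatives run. With the replicate block, edgeR called 0 genes higher and 0 lower, with 173 and 306 at an unadjusted p under 0.05, against 399 and 585 without it. The replicate numbers share no stated origin, and same-numbered libraries did not deviate together (correlation -0.0099 over 25565 genes). A correlation over genes cannot show whether these libraries shared a collection, so the block was kept as an alternative only. Of 96 fold changes under the alternatives, for the 9 genes in the main fit, 88 moved by less than the SD between replicates and 8 by more. Ccng1, Eda2r, Zmat3 and Mdm4 kept their sign under every alternative that tested them. Their groups did not overlap, so leaving out a single library could hardly turn the sign, and nothing is read from this. The requirement of 10 CPM left out Eda2r, Zmat3 and Sesn2, and Phlda3 entered only the fits without a low-count filter. Requiring a full p53 element left 1 gene, Cdkn1a, of the 4 with a half-site. Depth limits Eda2r and Phlda3 most.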
